A study of Mus musculus with 16 samples.

Results

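Copying the genome once per cell cycle needs a set of proteins that load the replicative helicase, synthesise and join the new strands, supply nucleotides and repackage the DNA. The genes described here are 37 such DNA replication and G1/S genes, listed by name for their function, with earlier results of these data known, out of 24445 named genes in the count table. All 37 had a row in the table. They fall into 6 roles: licensing and helicase (14 genes), polymerases, clamp and clamp loader (9), flap processing and ligation (2), nucleotide supply (5), G1/S regulators (3), and chromatin and histone supply (4).

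RNA was sequenced from 16 mouse samples, all ApoE-/-, a strain in which apolipoprotein E is missing and atherosclerosis develops. B1b cells, a subset of innate-like B cells, came from the peritoneal cavity and were purified by flow sorting on surface proteins, with 3 libraries of genotype wt and 3 of genotype cre. Whole aortas gave 5 libraries of genotype wt and 5 of genotype cre. The series describes the cre animals as lacking CD40, a costimulatory receptor, in B cells. Age, the Cre driver and the link from samples to animals are not in the labels, and p-values below therefore measure the spread between these samples, which may be technical. Replicate numbers are names only.

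In G1, the origin recognition complex (Orc1 encodes its largest subunit), Cdc6 and Cdt1 load the Mcm2-7 ring onto DNA, which licenses the origin. Licensed origins fire in S phase, when Cdc45 and the GINS complex join the ring and turn it into an active helicase. Many of these genes are known targets of E2F transcription factors, which the retinoblastoma family restrains in resting cells and cyclin E with Cdk2 helps to release. Resting lymphocytes leave the cycle into G0, and peritoneal B1 cells are known for maintaining themselves by slow self-renewal. Mitosis genes such as Mki67 and Cdk1 peak later in the cycle and are given beside the replication genes for comparison.

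The promoters of some members carry a sequence that E2F factors are known to bind, and 4 are printed because they show that sequence in genes that differed between B1b cells and aorta and in one that did not pass. RefSeq promoters of build GRCm38.p6, 250 bases before to 50 bases after the annotated start, were at hand for 31 of the 37 members. The 8-base words searched, on both strands, were TTTCCCGC, TTTCGCGC, TTTGCCGC and TTTGGCGC. At least 1 of them was found in 13 of 31 members (41.9%), against 704 of 27025 genes with a promoter (2.6%). The share was 19 of 54 (35.2%) in the further list of replication and E2F genes described below, so it was not particular to the members. Among mitosis genes it was 1 of 12 (8.33%). The word CCAAT, known to be bound by NF-Y, was found in 18 of 31 members (58.1%) and in 41.1% of all genes. It was found in 53.7% of the further list and in 91.7% of the mitosis genes. Capitals mark the E2F-type words below, all read 5′ to 3′ on the strand of the gene, and every window lies before the gene's start in both RefSeq and GENCODE.
Mcm5: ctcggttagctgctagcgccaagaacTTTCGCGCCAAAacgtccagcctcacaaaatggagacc
Mcm6: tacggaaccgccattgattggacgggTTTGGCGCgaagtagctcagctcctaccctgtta
Rfc3: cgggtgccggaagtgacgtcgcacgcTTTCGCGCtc
Gins3: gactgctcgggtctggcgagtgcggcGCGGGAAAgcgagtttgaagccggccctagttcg
The Mcm5 window (chr8:75109330-75109393, plus strand) held 2 overlapping words. The Mcm6 window (chr1:128359719-128359778, minus strand) held 1 of the 3 upstream words of its promoter. The Rfc3 window (chr5:151651209-151651244, minus strand) ends at the base before the start. The Gins3 window (chr8:95633492-95633551, plus strand) has the word on the other strand. Among members with a promoter entry, 9 of the 17 that were higher in wild-type B1b cells than in wild-type aorta had an E2F-type word, as did 0 of the 2 that were lower and 4 of the 12 that did not pass. A match to these letters is a description and not a measured binding site.

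Depth differed between the tissues. Counts kept per library, after 1 transcript was taken for each gene, lay between 6815829 and 9911226 for B1b cells and between 1645926 and 7300894 for aortas, where 2 libraries (wild-type replicate 5 and cre replicate 2) held under 2000000. One count was thus worth 0.101 CPM (counts scaled to a common library size, with TMM factors) in the deepest library and 0.608 CPM in the shallowest. The B cell genes Cd79a and Ms4a1 stood at 1250 to 1470 and at 1730 to 2220 CPM in the 6 B1b libraries, and the smooth muscle gene Acta2 at 3850 to 10300 CPM in the 10 aortas and at 4 to 5.23 CPM in the B1b libraries. Summed macrophage markers (8 genes) were at 126 to 252 CPM in wild-type and 313 to 357 CPM in cre B1b libraries, and 1 of the 8, Csf1r, passed (edgeR quasi-likelihood, adjusted p = 0.0357). Cd40 transcripts did not separate the genotypes, with 34.4 to 39.2 CPM in wild-type and 29.5 to 38.4 CPM in cre B1b cells. The labels do not say which part of Cd40 was altered, so this level checks nothing about the genotypes.

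Within wild-type B1b cells the members spanned a wide range of transcript level. Per kilobase of transcript, the highest means were Pold1 at 32.3 ± 3.23 CPM per kb (SD, n = 3), Mcm6 at 24.7 ± 0.366, Slbp at 24.4 ± 1.85, Pcna at 23.5 ± 2.06 and Cdt1 at 21.5 ± 6.16 CPM per kb. The 3 Pold1 libraries did not overlap those of the next gene, while Mcm6, Slbp, Pcna and Cdt1 overlapped one another in that order. Pold1 encodes the catalytic subunit of the lagging-strand polymerase delta, Pcna the sliding clamp that holds polymerases on DNA, and Slbp the protein that binds histone mRNA. The lowest means were Mcm10 at 0.505 ± 0.0874, Gins2 at 0.531 ± 0.306, Orc1 at 0.646 ± 0.426, Cdc6 at 0.786 ± 0.227 and Chaf1a at 0.989 ± 0.147 CPM per kb, and each of these overlapped its neighbour in the order. Members of 1 complex were therefore far apart in level: the 6 Mcm2-7 genes lay between 9.15 (Mcm5) and 24.7 CPM per kb (Mcm6), and the loader of the ring, Cdc6, stood lower than each of them while its partner Cdt1 did not.

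In wild-type aortas Slbp, Mcm6 and Pcna were again among the highest 5, while Pold1 was 12th and Cdt1 24th of 37. The means were Pcna at 15.8 ± 2.44 CPM per kb (SD, n = 5), Slbp at 10.9 ± 2.13, Mcm6 at 10.7 ± 1.29, Dut at 10.4 ± 3.51 and Rrm1 at 9.53 ± 2.33 CPM per kb. Dut removes dUTP from the nucleotide pool, and Rrm1 is the large subunit of ribonucleotide reductase. Mcm10 at 0.621 ± 0.3, Pole at 0.886 ± 0.262, Orc1 at 0.922 ± 0.565, Ccne1 at 1.06 ± 0.455 and Gins2 at 1.13 ± 0.435 CPM per kb were lowest. All 5 neighbours at the top and all 5 at the bottom overlapped in their libraries, so neither order is firm. Ccne1, the cyclin that partners Cdk2 at the G1/S transition, was 11th of 37 in wild-type B1b cells and among the lowest 4 in aorta.

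**Figure D1:**
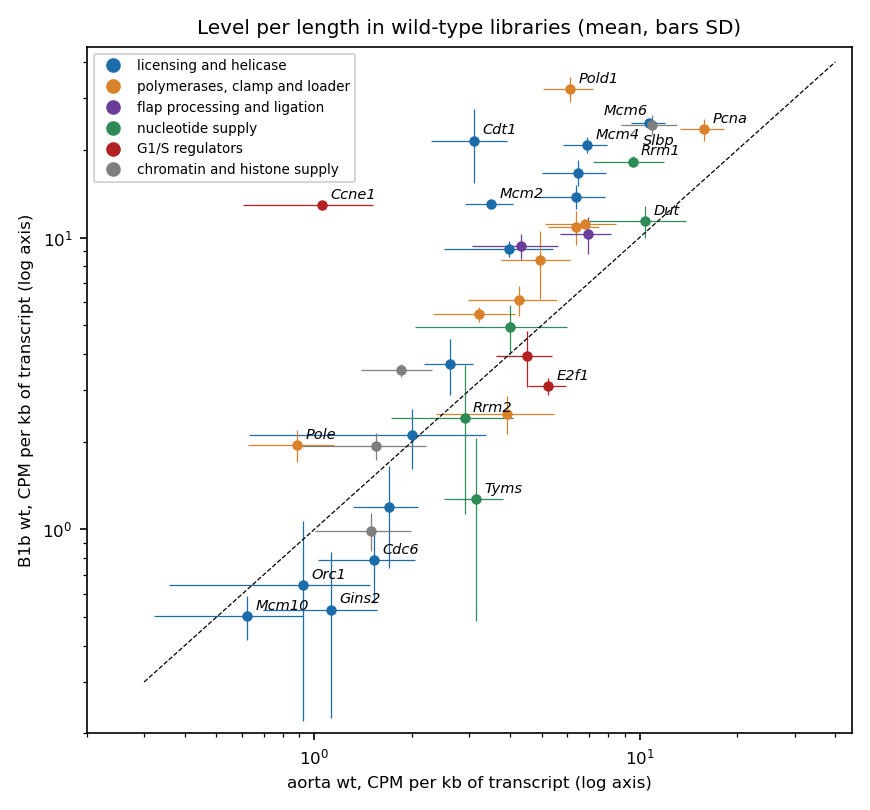
Mean transcript level per kilobase (CPM per kb, log axes) of the 37 members in 5 wild-type aortas (x axis) and 3 wild-type B1b libraries (y axis), coloured by role, with bars of 1 SD and a dashed line of equal level. Pold1, Cdt1, Mcm2 and Ccne1 lie far above the line, and Tyms, E2f1, Cdc6 and Gins2 below it.

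The first comparison set wild-type B1b cells against wild-type aortas. Of the 37 members, 20 were higher in B1b cells (edgeR quasi-likelihood, adjusted p under 0.05, where 35.4% of all 14339 genes tested were higher), 2 were lower (40.4% of all genes) and 15 did not pass. The median log2 difference over the members was 0.57, and over all genes tested -0.09. The largest differences were those of Ccne1, Cdt1, Pold1, Mcm2 and Mcm4, all higher in B1b cells. In bulk RNA, fewer cells of a type and less RNA per cell cannot be told apart, and tissue, cell makeup and sample handling differ together here.

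Licensing genes split in 2. All 6 Mcm2-7 genes and Cdt1 were higher in B1b cells, and none of the other 7 members of the role passed in either direction. Cdt1 was at 62.4, 37.2 and 41.3 CPM in wild-type B1b libraries and at 9.51, 7.06, 6.94, 5.67 and 4.76 CPM in wild-type aortas, a log2 difference of 2.76 (SE 0.23, adjusted p = 2.83e-07). Mcm2 stood at 45.2, 44.1 and 42.7 CPM against 14, 9.92, 12.3, 13 and 9.51 CPM (1.87, SE 0.16, adjusted p = 3.79e-07). For both genes every B1b library lay above every aorta.

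Mcm4 was at 69.6, 76 and 78.1 CPM in B1b cells and at 27.1, 25.6, 18.1, 27.9 and 24.8 CPM in aortas (log2 difference 1.59, SE 0.15). Mcm3 was at 52.4, 44.6 and 54.4 CPM against 22.8, 15.4, 23.5, 21.8 and 14.3 CPM (1.33, SE 0.18). Mcm6 was at 108, 109 and 106 CPM against 54.2, 41, 41.2, 49.2 and 48.1 CPM (1.20, SE 0.12). None of these groups overlapped, and the adjusted p of Mcm4, Mcm3 and Mcm6 was 9.18e-07, 2.2e-05 and 2e-06. The remaining subunits of the ring, Mcm5 and Mcm7, differed by 1.19 (SE 0.23) and 1.08 (SE 0.19) on the log2 scale.

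Of the other licensing genes, Cdc6 was at 2.68, 1.69 and 1.67 CPM in B1b cells and at 4.99, 3.53, 2.05, 3.69 and 5.29 CPM in aortas, with a log2 difference of -0.91 (SE 0.44, adjusted p = 0.0737). Gins2, a subunit of the GINS complex, was at 1.48, 1.3 and 3.44 CPM against 6.18, 2.87, 6.15, 2.69 and 4.23 CPM (-1.08, SE 0.48, adjusted p = 0.0575). Neither passed, and in both genes 1 B1b library lay within the range of the aortas. Both lay near the threshold and passed in other fits of all libraries: Cdc6 with DESeq2 (-1.01, adjusted p = 0.0334), limma-voom (-0.97, adjusted p = 0.0306) and counts summed over transcripts (-0.96, adjusted p = 0.0371), and Gins2 with RLE factors (-1.17, adjusted p = 0.0407), DESeq2 (-1.18, adjusted p = 0.0258) and limma-voom (-1.18, adjusted p = 0.023). With 1 library left out each of them could also pass: Cdc6 without aorta replicate 3 (-1.10, adjusted p = 0.0346), and Gins2 without B1b replicate 3 (-1.66, adjusted p = 0.0171), without aorta replicate 2 (-1.20, adjusted p = 0.0457) or without aorta replicate 4 (-1.24, adjusted p = 0.0381).

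Orc1 was read at very low depth, with 3.08, 2.2 and 0.556 CPM in B1b cells and 2.61, 5.51, 1.74, 2.98 and 1.06 CPM in aortas. Mcm10, which helps to activate the helicase, was at 2.95, 2.2 and 2.22 CPM against 4.52, 2.43, 4.42, 2.69 and 1.06 CPM. Groups overlapped for both, and their 95% intervals of the log2 difference ran from -1.89 to 0.74 and from -1.34 to 0.61. Intervals of Cdc45 (-1.41 to 0.31), Gins1 (-1.14 to 1.18) and Gins3 (-0.07 to 1.07) each left out a difference as large as that of Mcm2.

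DNA synthesis genes were mostly higher. Of the 9 polymerase, clamp and loader genes, 7 were higher in B1b cells (Pold1, Pole, Prim1, Rfc5, Rfc3, Rfc2 and Pcna), 0 were lower, and Rfc4 and Pola1 did not pass. Pold1 was at 125, 105 and 106 CPM in B1b cells and at 18.5, 20.1, 25.1, 17 and 24.8 CPM in aortas (log2 difference 2.41, SE 0.15, adjusted p = 1.93e-08). Pole, the catalytic subunit of the leading-strand polymerase epsilon, was at 14.1, 15.7 and 12.2 CPM against 8.32, 5.51, 4.26, 8.37 and 5.29 CPM (1.12, SE 0.27, adjusted p = 0.00212). Pcna was at 37, 32.2 and 38 CPM against 28, 26.5, 21.5, 25.1 and 19 CPM (0.56, SE 0.16, adjusted p = 0.00703). The B1b libraries lay above the aortas in each of these.

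Pola1, the catalytic subunit of the polymerase that starts each new strand with primase, went the other way in its values. It was at 11.8, 15.6 and 12.6 CPM in B1b cells and at 15.7, 20.9, 14, 18.9 and 34.9 CPM in aortas (-0.61, SE 0.28, adjusted p = 0.0614). It passed without aorta replicate 1 (-0.69, adjusted p = 0.0489) or aorta replicate 3 (-0.73, adjusted p = 0.0279), and on all libraries with RLE factors (-0.71, adjusted p = 0.0362), DESeq2 (-0.72, adjusted p = 0.0236) or no filter on low counts (-0.63, adjusted p = 0.0468). Prim1, the primase subunit that Pola1 works with, was higher in B1b cells by 0.77 (SE 0.21, adjusted p = 0.00502). Replication factor C opens the clamp: Rfc2 (0.68), Rfc3 (0.72) and Rfc5 (0.74) were higher, and Rfc4 was at 0.57 (SE 0.30, adjusted p = 0.0987), which became 0.71 (adjusted p = 0.0374) without aorta replicate 5 and 0.61 (adjusted p = 0.0413) with limma-voom. Rfc3 was lost without B1b replicate 1 (0.49, adjusted p = 0.159) or aorta replicate 3 (0.69, adjusted p = 0.0548), and with RLE factors (0.63, adjusted p = 0.0518), limma-voom (0.55, adjusted p = 0.0588) or summed transcripts (0.67, adjusted p = 0.0517).

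Fen1, the nuclease that trims flaps between Okazaki fragments, and Lig1, the ligase that joins the fragments, were both higher in B1b cells, by 1.08 (SE 0.24, adjusted p = 0.00107) and 0.54 (SE 0.18, adjusted p = 0.0152). The Lig1 call was lost without B1b replicate 1 (0.48, adjusted p = 0.0623) or replicate 3 (0.50, adjusted p = 0.061).

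Nucleotide supply genes did not share a direction. Rrm1 was higher at 70.3, 71.7 and 76.4 CPM in B1b cells against 35.2, 33.7, 30, 54 and 37.5 CPM in aortas (0.92, SE 0.18, adjusted p = 0.000385). Rrm2, the small subunit made mainly in S phase, did not pass and was at 8.45, 4.15 and 3.22 CPM against 9.27, 7.94, 5.05, 6.95 and 2.64 CPM (-0.32, SE 0.41). Tyms, thymidylate synthase, was lower in B1b cells, at 6.17, 1.3 and 4.56 CPM against 9.03, 12.3, 9.62, 7.23 and 11.6 CPM (-1.30, SE 0.41, adjusted p = 0.0126). Thus the subunits of 1 enzyme differed in their call, and every aorta exceeded every B1b library for Tyms. Dut at 24.5, 23 and 19.1 CPM against 31.4, 15, 20.4, 20.7 and 14.3 CPM differed by 0.10 (SE 0.24), and Tk1, thymidine kinase, by 0.22 (SE 0.39).

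The 3 G1/S regulators gave 3 outcomes. Ccne1 had the largest difference of all members, at 26.6, 25.4 and 25.6 CPM in B1b cells and at 3.33, 2.87, 1.58, 1.28 and 1.59 CPM in aortas (3.61, SE 0.28, adjusted p = 1.47e-07), a fold of 12.2. The gene lies at chr7:38097984-38107490 in GRCm38, on the same chromosome as Pold1 (chr7:44532744-44548815), Lig1 and Rrm1. Its paralog Ccne2 was at 11, 14.7 and 9.78 CPM against 14.3, 10.8, 15.6, 10.8 and 16.4 CPM, with overlapping groups (-0.19, SE 0.23, adjusted p = 0.472). E2f1, an activating E2F factor, was lower in B1b cells, at 8.31, 9.21 and 8.11 CPM against 16.9, 12.8, 15.3, 15 and 12.2 CPM (-0.77, SE 0.21, adjusted p = 0.00433).

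Among the chromatin and histone supply genes, Slbp was higher at 46.1, 43.2 and 50.2 CPM in B1b cells against 19.5, 19.8, 18.1, 27.9 and 18.5 CPM in aortas (1.14, SE 0.17, adjusted p = 4.58e-05). Uhrf1, which brings DNA methylation to newly copied DNA, was higher by 0.89 (SE 0.24, adjusted p = 0.00493). Chaf1a and Chaf1b, subunits of the chromatin assembly factor that places histones behind the fork, did not pass. Chaf1a was at 5.77, 6.1 and 4.56 CPM against 10.9, 9.04, 8.83, 8.65 and 3.7 CPM (-0.64, SE 0.31, adjusted p = 0.0812). Aorta replicate 5 was the exception below all B1b libraries, and without it the difference was -0.78 (adjusted p = 0.0161). Chaf1a also passed with RLE factors (-0.73, adjusted p = 0.0487), DESeq2 (-0.74, adjusted p = 0.0237) and limma-voom (-0.72, adjusted p = 0.018).

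The same contrast in libraries labelled cre used none of the same samples. Of 36 members tested (Orc1 fell to the filter on low counts), 19 were higher in cre B1b cells than in cre aortas (33.8% of all 14408 genes tested), 2 were lower (40.2% of all genes), and the median log2 difference was 0.75 (all genes -0.12). The 19 were 95% of the 20 members higher in wild type, and made up 100% of those higher in cre. The same overlap over all genes was not computed, so these shares are not read as particular to the members. Only Rfc3 was higher in wild type alone, at 0.57 (SE 0.31, adjusted p = 0.113) in cre. Tyms was lower in both (-1.75, SE 0.36, adjusted p = 0.000797 in cre). E2f1 (-0.44, SE 0.27, adjusted p = 0.154) did not pass in cre, and Gins2 did (-1.16, SE 0.42, adjusted p = 0.0256). Every cre B1b library still lay below every cre aorta for E2f1, as was so for 5624 of all 14408 genes tested. With DESeq2, E2f1 passed in cre (-0.59, adjusted p = 0.0302). The interaction term given further on also tests whether the tissue difference itself depended on genotype, and no member passed it.

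The large differences had similar size in cre libraries: Ccne1 3.05 (SE 0.44), Cdt1 2.51 (SE 0.35), Pold1 2.38 (SE 0.18), Mcm2 1.90 (SE 0.18) and Mcm4 1.85 (SE 0.26) on the log2 scale. Several smaller ones lay near the threshold and were lost when a single library was left out, for some genes whichever of several it was. Lig1 went from 0.59 to 0.27 (adjusted p = 0.26) without B1b cre replicate 3 and to 0.48 (adjusted p = 0.0536) without aorta cre replicate 4, and Fen1 from 1.06 to 0.84 (adjusted p = 0.0915) without B1b cre replicate 3. Rfc5 went from 0.89 to 0.72 and 0.74 (adjusted p = 0.122 and 0.11) without B1b cre replicate 1 or 3 and to 0.65 (adjusted p = 0.0516) without aorta cre replicate 4. Pcna went from 0.66 to 0.56 and 0.55 (adjusted p = 0.0666 and 0.0674) without B1b cre replicate 1 or 2, and Gins2 to -1.20 and -1.16 (adjusted p = 0.0653 and 0.0624) without the same libraries. Rfc2 was the least stable: its 0.46 passed in 1 of 8 fits with a library left out and ranged from 0.28 to 0.56 in them. It passed in 4 of the 9 other alternatives, and not with DESeq2 (0.33, adjusted p = 0.169) or RLE factors (0.32, adjusted p = 0.158). Without aorta cre replicate 2, Gins3 (1.02, adjusted p = 0.0132) and Tk1 (1.01, adjusted p = 0.0333) passed.

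**Figure D2:**
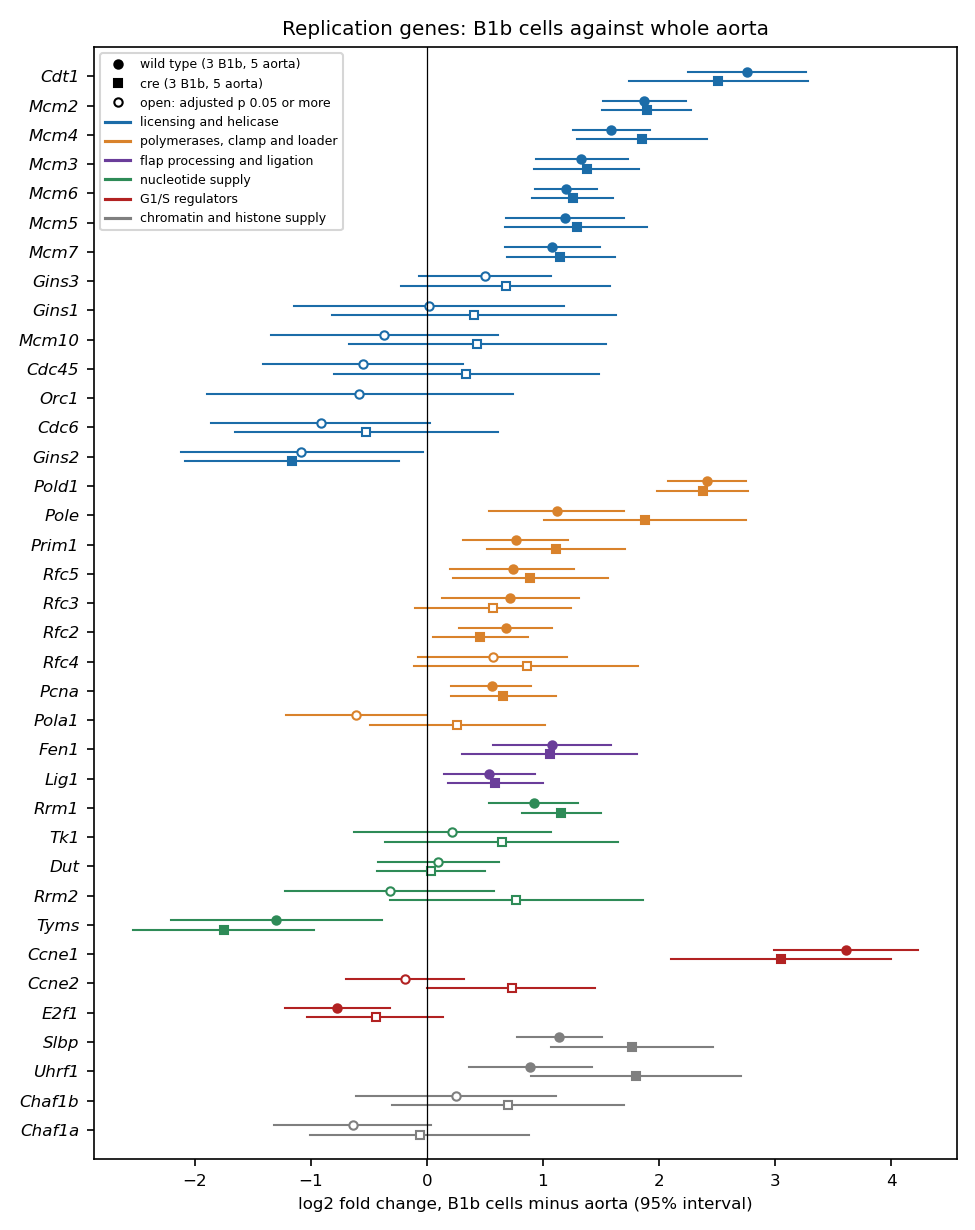
Log2 fold change between B1b cells and aortas (x axis, B1b minus aorta, bars 95% interval) for each member (y axis, grouped by role), in wild-type (circles) and cre (squares) libraries, open where the adjusted p was 0.05 or more. Mcm2-7, Cdt1, Pold1 and Ccne1 lie far to the right in both, Tyms to the left in both, and Orc1 has no cre point because it was not tested.

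Mitosis genes were placed beside these values from a list of 15. In the wild-type contrast 0 of 15 were higher in B1b cells (35.4% of all genes), 13 were lower (40.4%) and 2 did not pass. Their median log2 difference was -1.42 (all genes -0.09). Mki67, a mark of cycling cells, was at 28.2, 22.2 and 32.7 CPM in wild-type B1b cells against 60.4, 51.4, 42.6, 52.9 and 31.2 CPM in wild-type aortas (-0.80, SE 0.21, adjusted p = 0.00346). Cdk1, the kinase that drives entry into mitosis, was at 0.536, 1.3 and 1.67 CPM against 16.4, 8.82, 8.05, 10.5 and 7.4 CPM (-3.11, SE 0.43, adjusted p = 2.59e-05). Summed over the lists, wild-type B1b libraries held 946 to 1020 CPM of replication genes and 79.5 to 105 CPM of mitosis genes, and wild-type aortas 431 to 554 CPM and 133 to 249 CPM. In cre libraries the mitosis contrast was different in its counts, with 2 of 14 tested genes higher (Mki67 1.04 and Aurkb 1.62), 1 lower (Cdk1 -2.28) and 11 not passing, although no mitosis gene passed the interaction test of that difference. Of all genes tested in the cre contrast, 33.8% were higher and 40.2% lower.

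**Figure D3:**
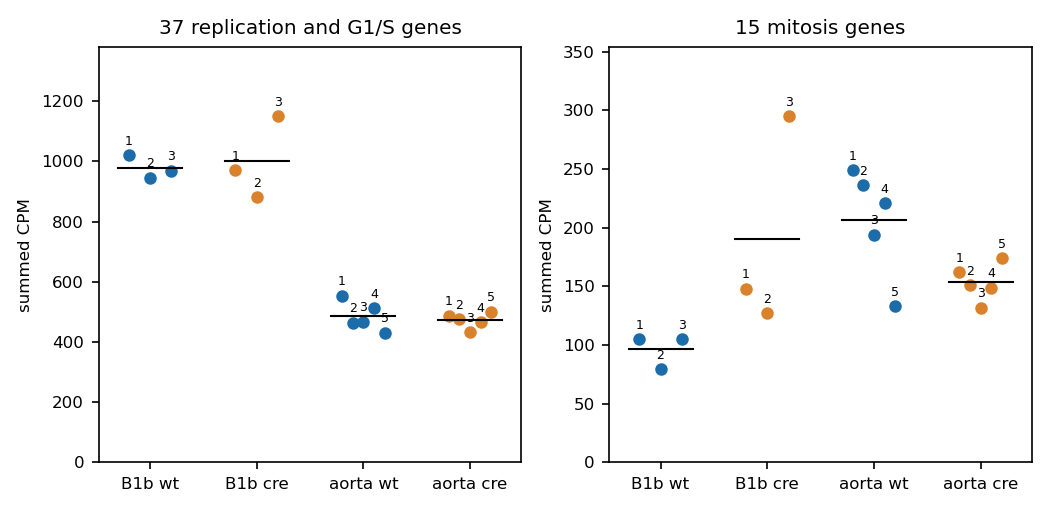
Summed CPM (y axis, from 0) of the 37 replication and G1/S genes (left) and 15 mitosis genes (right) in each library, with the replicate number above each point and a line at the group mean. Replication sums are higher in all B1b libraries than in all aortas, while mitosis sums of wild-type B1b libraries lie below all aortas and B1b cre replicate 3 stands above all other libraries.

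From a further list of 65 replication and E2F genes, 36 of 64 tested were higher in wild-type B1b cells than in wild-type aortas. A further 4 were lower and 24 did not pass, with a median of 0.64. Of all genes tested, 35.4% were higher and 40.4% lower, with a median of -0.09. E2f2, another activating E2F factor, had the largest difference towards B1b cells, at 70.7, 67.3 and 66.4 CPM against 8.08, 7.5, 7.1, 11.1 and 8.99 CPM (2.98, SE 0.17, adjusted p = 5.36e-09), while its relative E2f1 was lower. The retinoblastoma family genes Rb1 (2.50), Rbl1 (2.11) and Rbl2 (1.12), which restrain E2F, were all higher in B1b cells. So was Samhd1, which degrades the nucleotides that Rrm1 and Rrm2 help to make, at 770 to 907 CPM against 128 to 190 CPM (2.38, SE 0.15). The lower genes included E2f7 (-3.13), Dna2 (-1.83) and Timeless (-0.79). In cre libraries 34 of 65 were higher (33.8% of all genes tested) and 2 were lower (40.2%). E2f2, Rb1, Samhd1, Dna2 and others of these genes were named after their values were seen.

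The second comparison asked whether replication genes differed between cre and wild-type B1b cells. All 37 members were tested and 0 passed (edgeR quasi-likelihood, where 0.707% of all 11732 genes tested passed), with 0 also by DESeq2 and by limma-voom. At an unadjusted p under 0.05 there were 3 members, Uhrf1 and Ccne2 higher and Pold1 lower, against 13.3% of all genes. The median log2 difference, cre minus wild type, was 0.11 over the members and -0.00 over all genes. Above 0 were 25 of the 37 members, against 49.1% of all genes. Without B1b cre replicate 3 the median of the members became -0.03 and 17 of them were above 0, so the direction of the list rests on that library.

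Pold1 had the smallest p. It was at 125, 105 and 106 CPM in wild-type and at 89.2, 88.9 and 94.3 CPM in cre B1b cells, a log2 difference of -0.29 (SE 0.10, adjusted p = 0.181). Its groups did not overlap, which was so for 1 of 37 members and for 17.9% of all genes tested. Without cre replicate 3 the difference was -0.31, and with any 1 of the 6 libraries left out it ran from -0.33 to -0.19. Without wild-type replicate 1, 0 of the 37 members had an unadjusted p under 0.05, so the small p of Pold1 depended on that library. Cdt1, the licensing factor, was at 62.4, 37.2 and 41.3 CPM against 40.2, 24.1 and 37.5 CPM (-0.46, SE 0.23, adjusted p = 0.425), with groups that overlapped.

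Uhrf1 was at 12.9, 13.1 and 11.9 CPM in wild-type and at 11, 18.9 and 25.4 CPM in cre B1b cells (0.56, SE 0.24, adjusted p = 0.328). One cre library lay below all wild-type ones and the other two above, and without cre replicate 3 the difference was 0.26 (SE 0.24). Ccne2 was at 11, 14.7 and 9.78 CPM against 13.4, 19.6 and 16.2 CPM (0.48, SE 0.21, adjusted p = 0.34). Its 0.50 without cre replicate 3 was as large. Rrm1 was at 70.3, 71.7 and 76.4 CPM against 82.3, 74.4 and 88.5 CPM (0.17, SE 0.09, adjusted p = 0.451), with 1 cre library inside the wild-type range.

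Cdc45, the helicase component that joins at firing, was at 1.61, 2.46 and 3.56 CPM in wild-type and at 2.62, 3.73 and 7.83 CPM in cre B1b cells (0.90, SE 0.47, adjusted p = 0.422), and at 0.33 (SE 0.56) without cre replicate 3. Rrm2 had the largest fitted difference of the members, 0.98 (SE 0.66, adjusted p = 0.605), from 8.45, 4.15 and 3.22 CPM against 6.86, 3.87 and 19.6 CPM. Without cre replicate 3 it was 0.05 (SE 0.43). For Cdc45 and Rrm2 the other two cre libraries lay close to or within the wild-type range.

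For genes at moderate level the intervals were narrow. The 6 Mcm2-7 genes had log2 differences from -0.02 to 0.17, with 95% intervals reaching from -0.32 to 0.56 at most. Ccne1 (95% interval -0.35 to 0.27), Pcna (-0.16 to 0.38) and Slbp (-0.11 to 0.40) were bounded in the same way. For Orc1 (-1.49 to 1.15), Cdc6 (-1.35 to 0.94), Tyms (-1.44 to 0.65) and Rrm2 (-0.62 to 2.57) the libraries differed too much to bound the difference closely. Missing the threshold does not show that the genotypes were alike for these genes.

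B1b cre replicate 3, the deepest library, stood apart in the replication genes. It was the highest of the 6 B1b libraries for 19 of 37 members (51.4%), and for 17% of all genes tested. Against the mean of the other 5 libraries its level was 3.69 times as high for Rrm2, 2.8 for Cdc45, 2.28 for Mcm10, 2.01 for Chaf1b, 1.97 for Chaf1a, 1.92 for Pole, 1.87 for Uhrf1 and 1.81 for Rfc4. All 6 Mcm2-7 genes were also highest there, but by 1.2 to 1.45 times. Pold1, Cdt1, Ccne1, E2f1, Pcna and Tyms were among those not highest in it, with ratios from 0.651 for Tyms to 1.06 for Ccne1. Some others not highest in it had larger ratios, such as Orc1 (1.52), Gins2 (1.28), Cdc6 (1.25) and Pola1 (1.25). Rrm2, Cdc45, Mcm10 and both chromatin assembly subunits were thus farthest above the other libraries, and Ccne1 and E2f1 lay within the range of the others.

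Most mitosis genes were also highest in that library. Their summed level reached 295 CPM in cre replicate 3, while cre replicates 1 and 2 (148 and 127 CPM) also lay above all 3 wild-type libraries (105, 79.5 and 105 CPM), and 11 of 13 tested mitosis genes were highest there. Mki67 was at 28.2, 22.2 and 32.7 CPM in wild-type and at 52.2, 48 and 114 CPM in cre B1b cells. In the edgeR fit used throughout, no mitosis gene passed over all 6 libraries (0 of 13, with 7 at an unadjusted p under 0.05, median 0.70, 12 above 0). Of all genes tested, 13.3% had an unadjusted p under 0.05 and 49.1% lay above 0. In other fits of all 6, 1 passed with DESeq2, 1 with non-robust quasi-likelihood and 3 of 15 with no filter on low counts. Leaving out cre replicate 2 also gave 1 call. Without cre replicate 3 the median was 0.35, and Mki67 alone passed (0.87, SE 0.16, adjusted p = 0.00721). Macrophage markers did not single out that library, at 313 CPM summed against 318 and 357 CPM in the other cre libraries, and its T and NK cell markers summed to 1.63 CPM. Germinal centre and plasma cell markers (6 genes) had their highest sum in it, at 578 CPM against 461 to 539 CPM in the others. Of the 6, 1 passed between all cre and wild-type B1b libraries: Jchain, the joining chain of secreted antibody (1.78, SE 0.30, adjusted p = 0.00678). The list had no shared direction in that contrast, with 3 of the 6 above 0, 3 below and a median of 0.02. What set this library apart was not tested. At the other end, cre replicate 2, the shallowest B1b library, was the lowest for 15 of 37 members (40.5%) and for 27.5% of all genes.

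**Figure D4:**
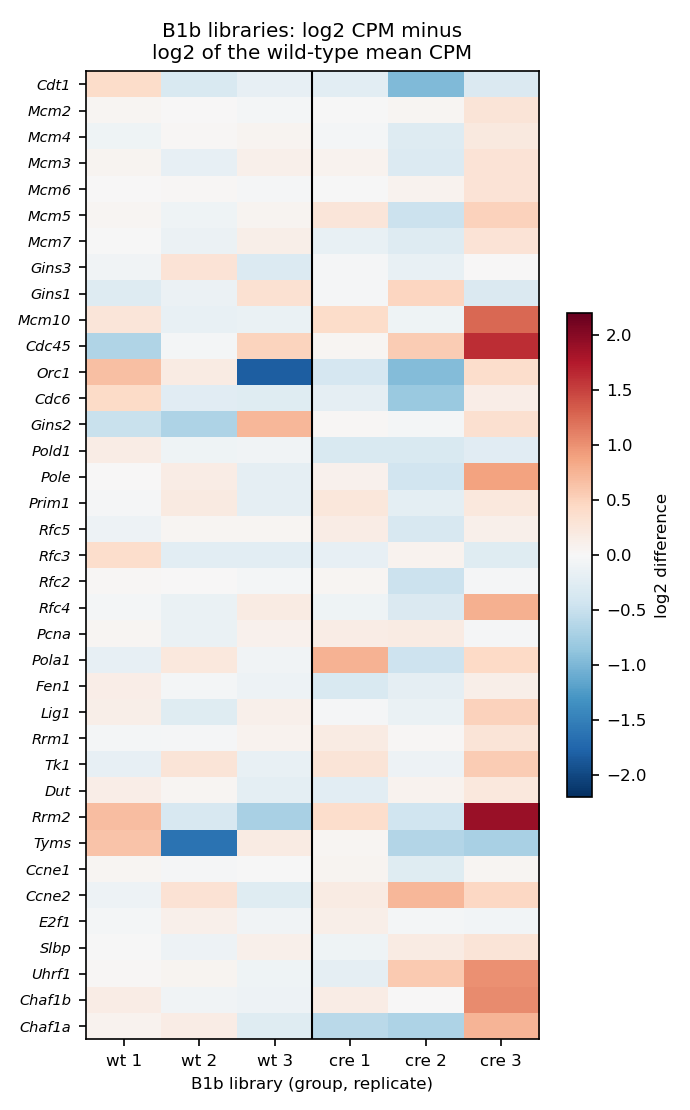
Level of each member (rows, grouped by role) in the 6 B1b libraries (columns), as log2 CPM minus the log2 of the wild-type mean CPM, red for higher and blue for lower. Cre replicate 3 is the reddest column, led by Rrm2, Cdc45, Mcm10 and Chaf1b, while Pold1 is blue in all 3 cre libraries.

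Of the further replication and E2F genes, 0 of 64 tested passed in B1b cells. At an unadjusted p under 0.05 there were 3, all higher (13.3% of all genes), and the median was 0.06. Rb1, which restrains E2F, came nearest, at 201, 242 and 266 CPM in wild-type and 317, 300 and 284 CPM in cre (0.35, SE 0.09, adjusted p = 0.0706). Hells, a chromatin remodeller, was at 12.9, 13.6 and 13.4 CPM against 17.2, 17.2 and 19.1 CPM (0.43, SE 0.18, adjusted p = 0.298). Clspn, a fork checkpoint gene, was at 2.68, 0.778 and 2.11 CPM against 4.62, 2.87 and 4.98 CPM (1.16, SE 0.51, adjusted p = 0.325), and Donson at 65.4, 67.1 and 64.1 CPM against 54.5, 52.7 and 62.3 CPM (-0.20, SE 0.10, adjusted p = 0.393). The groups of each of these 4 genes did not overlap, as was so for 7 higher and 3 lower genes of the 64 (17.9% of all genes tested). Without cre replicate 3, Rb1 passed (0.41, SE 0.09, adjusted p = 0.0452). Other alternatives gave calls in this list too: 1 gene without wild-type replicate 3, 1 with DESeq2 and 2 of 65 with no filter on low counts.

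The third comparison set cre against wild-type aortas. Gins1 and Orc1 fell to the filter on low counts, and 0 of the 35 members tested passed (edgeR quasi-likelihood, where 0.015% of all 13364 genes passed), with 0 by DESeq2 and by limma-voom. None had an unadjusted p under 0.05 (12.6% of all genes did), and the groups overlapped for every member tested (2.88% of all genes did not overlap). The median was -0.05 (all genes 0.00), with 15 members above 0 and 20 below. Other tissue varied between the aortas: summed heart muscle markers (4 genes) ran from 492 to 2260 CPM in wild-type and from 486 to 4670 CPM in cre aortas, and adipocyte markers (3 genes) from 471 to 2510 CPM and from 932 to 3060 CPM. Fibroblast markers (4 genes) ran from 9150 to 13300 CPM in wild-type and from 6420 to 10600 CPM in cre aortas, with 4 of 4 below 0, 0 past the threshold, 3 at an unadjusted p under 0.05 and a median of -0.48. Their part in the values below was not tested.

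The 6 members of smallest p were all below 0. Pola1 was at 15.7, 20.9, 14, 18.9 and 34.9 CPM in wild-type and at 15.9, 6.62, 21.1, 15.6 and 12 CPM in cre aortas (-0.49, SE 0.29, adjusted p = 0.505). Chaf1a was at 10.9, 9.04, 8.83, 8.65 and 3.7 CPM against 4.16, 7.83, 6.4, 5.66 and 6.02 CPM (-0.50, SE 0.30, adjusted p = 0.508). In both genes wild-type replicate 5, a library under 2000000 counts, lay at an end of its group, highest for Pola1 and lowest for Chaf1a.

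Slbp was at 19.5, 19.8, 18.1, 27.9 and 18.5 CPM in wild-type and at 10.8, 5.42, 16.6, 21.3 and 20.2 CPM in cre aortas (-0.44, SE 0.28, adjusted p = 0.532). Cdc6 was at 4.99, 3.53, 2.05, 3.69 and 5.29 CPM against 3.18, 1.2, 1.9, 2.83 and 3.24 CPM (-0.55, SE 0.39, adjusted p = 0.575). Ccne2 was at 14.3, 10.8, 15.6, 10.8 and 16.4 CPM against 12.5, 8.43, 4.74, 12.9 and 12.2 CPM (-0.39, SE 0.28, adjusted p = 0.584). E2f1 ran from 12.2 to 16.9 CPM in wild type and from 9.49 to 14.7 CPM in cre (-0.25, SE 0.20, adjusted p = 0.623), and as in the others the groups overlapped.

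Of the members with large tissue differences, Cdt1 (-0.19, SE 0.35) and Pold1 (-0.20, SE 0.20) lay below 0 between the aortas of both genotypes and did not pass. The Mcm2-7 genes differed by -0.24 to 0.16 on the log2 scale, and Ccne1 was at 3.33, 2.87, 1.58, 1.28 and 1.59 CPM in wild-type and at 4.65, 0.602, 1.19, 4.99 and 2.93 CPM in cre aortas (0.53, SE 0.51), the largest upward value of the 35 members. Its cre aortas lay on both sides of the wild-type ones. Pcna ran from 19 to 28 CPM in wild-type and from 16.6 to 30.9 CPM in cre (0.06, SE 0.19), and Rrm1 from 30 to 54 and from 32.8 to 50 CPM (0.00, SE 0.18).

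Of the further list 0 of 60 passed in aortas. At an unadjusted p under 0.05 there were 2, both lower (12.6% of all genes), and the median was -0.03. Orc4, an origin recognition subunit, was at 45.2, 36.8, 44.6, 35.2 and 47.6 CPM in wild-type and at 34.3, 25.9, 17.3, 33.8 and 30.1 CPM in cre (-0.55, SE 0.19, adjusted p = 0.278), with groups that did not overlap. Rbl2 (-0.40, SE 0.17, adjusted p = 0.353), Cdk2 (-0.35, SE 0.16, adjusted p = 0.399) and Cdca7 (0.64, SE 0.34, adjusted p = 0.453) followed. Mitosis genes lay below 0 in 14 of 14 tested, with 0 past the threshold, 4 at an unadjusted p under 0.05 and a median of -0.48. Of all 13364 genes tested, 6656 lay below 0, and 12.6% had an unadjusted p under 0.05. Cenpf, a kinetochore gene, was lowest at -0.84 (SE 0.23, adjusted p = 0.217).

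**Figure D5:**
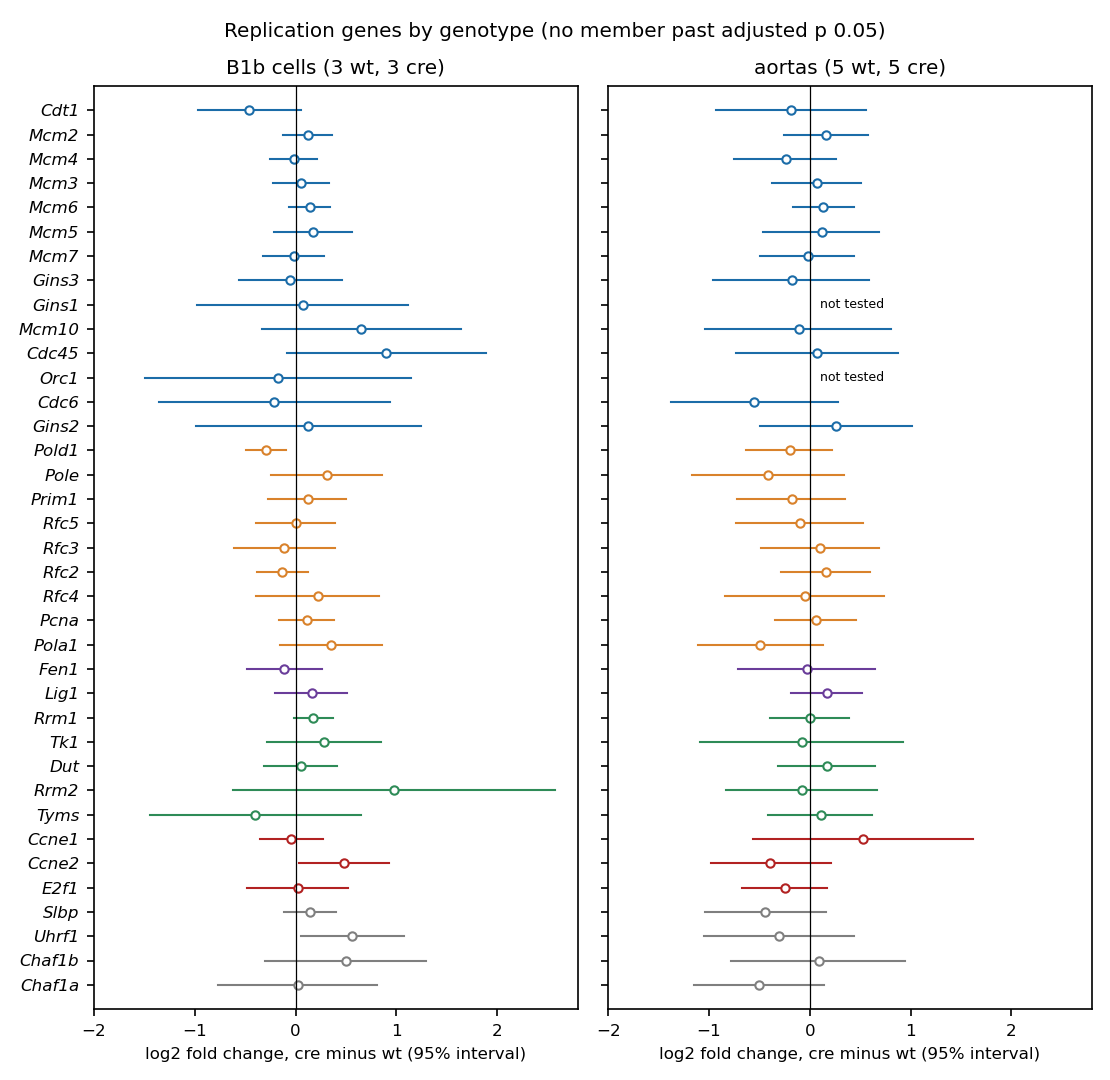
Log2 fold change, cre minus wild type (x axis, bars 95% interval), for each member in B1b cells (left, 3 against 3 libraries) and in aortas (right, 5 against 5 libraries), coloured by role as in the plot of the tissue contrast. All points are open because no member passed, and Gins1 and Orc1 were not tested in aortas.

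The difference between the genotype effects in the 2 tissues was tested with an interaction term over all 16 libraries. Of 37 members 0 passed (0.0199% of all 15091 genes tested did). An unadjusted p under 0.05 was reached by 1678 of the 15091 genes, and among the members by Ccne2 alone. Its genotype difference was 0.48 in B1b cells and -0.39 in aortas, and the difference between them was 0.85 (SE 0.40, adjusted p = 0.445). Chromatin and histone supply genes lay above 0 in 4 of 4 (45.6% of all genes did), from 0.38 (Chaf1b) to 0.84 (Uhrf1, SE 0.48, adjusted p = 0.537). Within B1b cells the median genotype difference of these 4 genes was 0.32. It fell to 0.08, with 3 of the 4 above 0, without cre replicate 3. The Mcm2-7 genes ranged from -0.04 to 0.20. In the mitosis list 0 of 15 passed and 6 had an unadjusted p under 0.05, led by Cenpf (2.88, SE 0.62, adjusted p = 0.14) and Mki67 (1.78, SE 0.38, adjusted p = 0.14).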

How the data were processed

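RNA sequencing of 16 samples was used (groups of 3 and 3 B1b and 5 and 5 aorta libraries, from the genotype label). The authors deposited 1 table of raw counts, not normalized, with a row for each RefSeq transcript. The submitters' processing notes name CASAVA 1.8.2, STAR 2.5.2b and mm10. For the counting tool, annotation release and strand the entry is: not given in the sources used here. Of 35745 transcripts, the one of highest total count was kept per gene, since transcripts of 1 gene share reads. The 117 transcripts with no gene name (0.24% to 2.5% of a library's counts) were kept as entries of their own in library sizes and tests. edgeR 4.0.16 in R 4.3.3 (TMM, filterByExpr, robust quasi-likelihood F test) gave all p-values except those printed with another tool or setting. They were adjusted by Benjamini-Hochberg over all genes tested, threshold 0.05. Each contrast was fitted on its own libraries, and the interaction on all 16. Values in CPM use TMM factors over all 16 libraries. Levels per kb use the length of the GENCODE transcript matched to the RefSeq identifier. Promoters and motif matches are from RefSeq. Scripts were tested on simulated counts. DESeq2 1.42.0, limma-voom 3.58.1, other scalings, filters and transcript choices, and leaving out libraries were alternatives.

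The members and lists were chosen with earlier results of these data known. Named genes are those past the threshold or among the 6 of smallest p per genotype contrast, the 5 highest and 5 lowest levels per length in each tissue, the 6 largest differences in each direction between the wild-type tissues, and 4 further genes of smallest p per tissue. Other genes with values were chosen after these were seen. Of the cell type marker lists, only those that bear on a result are printed, and some genes are not reported here.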

Additional observations from a re-analysis of the deposited data

Results flagged for a closer look

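In groups of 5 aortas, 74 tests for a single library far from the others (a gap above 0.71 of the group's range) gave 6 cases, and chance gives about 1 in 20. Mcm5 was at 21.9 CPM in aorta wild-type replicate 1 and at 10 to 12.9 CPM in the other 4. Prim1 was at 13.2 CPM in wild-type replicate 2 and at 8.83 to 9.74 CPM in the others. Slbp was at 27.9 CPM in wild-type replicate 4 and at 18.1 to 19.8 CPM in the others. In aorta cre replicate 2, a library under 2000000 counts, Mcm4 was at 8.43 CPM (others 21.3 to 24.7 CPM) and Gins3 at 12.6 CPM (others 3.32 to 5.53 CPM). Gins1 was at 0.474 CPM in cre replicate 3 and at 1.96 to 2.43 CPM in the others. No cause of these values was tested. B1b groups of 3 are too small for this check.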

How the results depend on the processing

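No paired analysis was possible because the sample titles give every sample a number of its own, and no label pairs samples across groups. The count of members past the threshold was 0 in every alternative for both genotype comparisons and for the interaction. For wild-type B1b cells against aortas it ran from 20 to 24 with 1 library left out and from 22 to 26 in the other alternatives (22 as reported), and for cre from 17 to 23 and from 20 to 23 (21 as reported). The members lower in wild-type B1b cells numbered 2 as reported, 5 with RLE size factors or limma-voom, and 6 with DESeq2. RLE factors moved the median of all genes from -0.12 to -0.26 in the cre contrast and from -0.09 to -0.19 in the wild-type one. No called member changed direction in any alternative. Leaving out libraries of the interaction, and its fit without libraries under 2000000 counts, were chosen after seeing the data. Members at about 3 CPM or less in aortas, such as Orc1 and Mcm10, rest on few counts in the shallow ones. Gins2 was at 4.23 CPM in aorta wild-type replicate 5 and 5.42 CPM in cre replicate 2, from 8 and 9 counts.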
